A study of Homo sapiens with 12 samples.

Results

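The genes described here were 8 metallothionein genes, MT1A, MT1E, MT1F, MT1G, MT1H, MT1M, MT1X and MT2A, together with MTF1. They were chosen by symbol, and each had 1 row among the 58302 genes of the expression table, so that 9 of 58302 genes are described. RNA-sequencing was performed on 3 established human prostate cell lines with 4 libraries each, to screen genes that differed between a benign line and prostate cancer (PCa) lines. BPH-1 was the benign line, an epithelial line from benign prostatic hyperplasia immortalized with a viral T antigen. DU145 and PC3 were the PCa lines, derived from metastases and grown without dependence on androgen. All 3 lines carried the genotype label WT, with no treatment named, and were cultured in the same serum-supplemented DMEM with penicillin and streptomycin. Each condition was thus a single cell line, and line and disease state cannot be told apart. The labels did not say whether the 4 libraries of a line came from separate cultures, so p-values measure the spread between these libraries, which may be technical.

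Metallothioneins are small cysteine-rich proteins that bind zinc, copper and cadmium, buffer free zinc and scavenge oxidants. MTF1 is the zinc-finger factor that senses zinc and switches on metallothionein genes and the zinc exporter gene SLC30A1 by binding metal response elements in their promoters. The prostate is known for accumulating zinc, and glucocorticoids and oxidative stress are further known inducers of metallothionein genes.

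In GENCODE 29 (GRCh38), the 8 metallothionein genes lay in 1 cluster on chromosome 16, from the start of MT2A at 56608199 to the end of MT1X at 56684196, and MTF1 lay at chr1:37809567-37859620 on the minus strand. Each of the 8 had a coding sequence of 186 bases, with 61 codons before the stop, of which 20 were TGC or TGT, the codons for cysteine. Identity between coding sequences ranged from 88.7% (MT1F and MT1X) to 95.2% (MT1G and MT2A).

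Because the genes are so alike, short reads can fit more than 1 of them, and how the authors' counting treated such reads is not given in the sources used here. Of all 50-base stretches of a gene's transcripts, the share also found in another gene's transcripts was 5.8% for MT1A, 7.1% for MT1E, 3.0% for MT2A, 1.2% for MT1F, 9.9% for MT1M, 15.8% for MT1H, 16.5% for MT1G and 18.3% for MT1X. For 100-base stretches the share was 0.0% for MT1A, MT1E, MT2A, MT1F, MT1M and MT1G, 1.4% for MT1H, and 11.3% for MT1X, the last shared with AC026461.1, an overlapping transcript on the same strand that was listed at 0 in every library.

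The promoter table of RefSeq (GRCh38.p14) held 4 of the 9 genes, MT1H, MT1X, MT2A and MTF1. The core of the metal response element, the sequence MTF1 binds, was searched as TGCACNC (first motif) and TGCGCNC (second motif) on both strands of the 250 bases before the start site. These promoters are shown because MT2A, MT1X and MT1H carry many matches yet differed widely in level. All lie on the plus strand, and capitals mark the matches.
MT2A, chr16:56608334-56608583: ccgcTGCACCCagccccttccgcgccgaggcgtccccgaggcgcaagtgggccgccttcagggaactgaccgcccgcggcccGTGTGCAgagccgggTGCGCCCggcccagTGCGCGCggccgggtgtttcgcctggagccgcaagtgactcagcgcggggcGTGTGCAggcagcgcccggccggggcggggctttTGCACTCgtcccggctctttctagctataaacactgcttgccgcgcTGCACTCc
MT1X, chr16:56682220-56682469: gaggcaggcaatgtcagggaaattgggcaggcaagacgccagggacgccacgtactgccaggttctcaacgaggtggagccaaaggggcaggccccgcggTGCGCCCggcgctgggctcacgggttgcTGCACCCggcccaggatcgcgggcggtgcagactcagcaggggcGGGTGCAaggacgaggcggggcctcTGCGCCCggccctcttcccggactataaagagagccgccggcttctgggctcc
MT1H, chr16:56669564-56669813: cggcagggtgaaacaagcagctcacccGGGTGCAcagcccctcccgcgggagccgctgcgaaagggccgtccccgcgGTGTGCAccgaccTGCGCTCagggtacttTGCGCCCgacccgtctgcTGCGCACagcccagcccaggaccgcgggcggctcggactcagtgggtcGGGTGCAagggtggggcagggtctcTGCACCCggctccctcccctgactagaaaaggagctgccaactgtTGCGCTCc

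Matches that did not overlap one another stood at 7 places before MT2A, 4 before MT1X, 8 before MT1H and 0 before MTF1. Of 35116 promoters of the same length, 24.829% held at least 1 such place, 0.208% held at least 4, and 8 promoters held at least 7. SLC30A1 had 1 place. A match is a description of the letters and not a site shown to be bound.

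**Figure D1:**
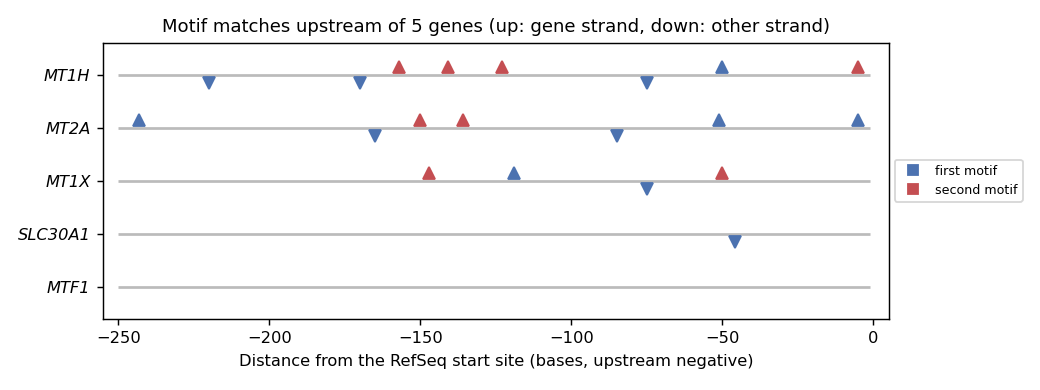
Positions of metal response element core matches in the 250 bases before the RefSeq start sites of 5 genes. The x axis is the distance from the start site in bases, triangles pointing up are matches on the strand of the gene and triangles pointing down on the other strand, and colour gives the motif; MT1H shows 8 places, MT2A 7, MT1X 4, SLC30A1 1 and MTF1 0.

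The values were FPKM, read counts divided by gene length and by library depth, and the depth behind them was 12950666 to 16309561 reads per library (median 15341001). Of 7 epithelial markers, all were at 1 FPKM or more in each BPH-1 library, but only 2 were in each DU145 library (KRT8 and KRT18) and 3 or 4 in PC3. EPCAM was 57.7 to 63.2 FPKM in BPH-1, 6.92 to 11.1 in PC3 and 0.167 to 0.573 in DU145. CDH1, the epithelial cadherin, was 16.3 to 44.6 FPKM in BPH-1, 0.427 to 1.42 in PC3 and 0.0851 to 0.297 in DU145. The libraries labelled DU145 thus had these defining epithelial markers near 0, and all values given for DU145 rest on that label, which was not tested. Of the prostate luminal markers, KLK3 was listed at 0 in every library. Of the 5 leukocyte markers, the summed level was 9.58 to 12.5 FPKM in BPH-1 and 9.53 and 10.3 in DU145 replicates 1 and 2, but 0 and 0.0387 in DU145 replicates 3 and 4 and 0.0796 to 0.23 in PC3, with LYZ the highest and CD3E at 0 throughout. The DU145 libraries also differed in how the level of a gene depended on its GC content. Log2 FPKM was centred on each gene's mean over the 12 libraries, so slopes against GC are relative to the average library. Per 10 percentage points of GC, the slope was 0.704 and 1.06 in DU145 replicates 1 and 3 and -0.179 and -0.003 in replicates 2 and 4. It was -0.742 to -0.613 in BPH-1 and -0.02 to 0.72 in PC3. Results are therefore given also with the GC trend divided out and without these pairs of DU145 libraries, where that changed a call.

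MT2A, a widely expressed metal-binding member, was high in BPH-1 and DU145 and low in PC3. In BPH-1, MT2A (chr16:56608199-56609497) was at 81.1, 81.8, 72.7 and 33.0 FPKM in replicates 1 to 4. In DU145 it was at 73.2, 62.5, 93.1 and 58.6 FPKM, and in PC3 at 15.1, 10.4, 5.58 and 10.2 FPKM. The PC3 libraries lay below every other library, while BPH-1 and DU145 overlapped, with BPH-1 replicate 4 lowest of the 8. The mean of PC3 (10.3 ± 3.91 FPKM, SD, n = 4) was 6.5-fold below that of BPH-1 (67.1 ± 23.1) and 6.96-fold below that of DU145 (71.8 ± 15.4).

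MT1E, another member expressed in many cell types, separated the 3 lines with no overlap. MT1E (chr16:56625475-56627112) was at 8.97, 10.1, 8.16 and 6.52 FPKM in BPH-1. It was at 82.9, 58.1, 100.1 and 54.6 FPKM in DU145. In PC3 it was at 0.151, 0, 0.282 and 0 FPKM, that is 3, 0, 6 and 0 reads. The mean was 8.77-fold higher in DU145 than in BPH-1, and 77.7-fold lower in PC3 than in BPH-1. The PC3 mean rested on 9 reads, so that the ratio of reads per depth, 797 against 9, was 76.6 with a 95% counting interval of 40.2 to 168, and without PC3 replicate 3 the ratio of the means was 167. In DU145, replicates 1 and 3, with the steep GC slopes, were the highest for both MT1E and MT2A.

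MT1A, another metal-inducible member, was detected at more than 1 read in DU145 alone. MT1A (chr16:56638666-56640087) was at 14.6, 13.5, 19.8 and 14.1 FPKM in DU145, from 75 to 121 reads. A single read, in BPH-1 replicate 3 (0.163 FPKM), was the only one in the other 8 libraries. The 7 libraries with 0 reads allow a level of up to 0.485 to 0.585 FPKM (3 reads, counting error only). From 377 reads against 1, the ratio of DU145 to BPH-1 was 380, with a 95% counting interval of 67.7 to 15000. DU145 was at least 109-fold higher than PC3, taking 3 reads over the PC3 libraries as the floor.

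MT1M, a less abundant member, was detected in BPH-1 and DU145 and not in PC3. MT1M (chr16:56632233-56633986) was at 0.306, 0.988, 0.607 and 0.362 FPKM in BPH-1, from 5 to 16 reads. It was at 1.57, 0.925, 1.22 and 1.33 FPKM in DU145 and at 0 reads in all 4 PC3 libraries. BPH-1 and DU145 overlapped through BPH-1 replicate 2 and DU145 replicate 2. Against the floor of 3 reads over the PC3 libraries, MT1M was at least 10.7-fold higher in BPH-1 and at least 23.9-fold higher in DU145.

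MT1X and MT1F showed the same order as MT2A at lower levels. MT1X (chr16:56682424-56684196) was at 5.30, 4.05, 5.39 and 4.17 FPKM in BPH-1, at 5.41, 3.85, 6.32 and 3.94 in DU145, and at 1.45, 1.42, 1.31 and 2.27 in PC3. MT1F (chr16:56657694-56660698) was at 0.909, 1.92, 0.839 and 1.155 FPKM in BPH-1, at 1.504, 1.21, 1.795 and 0.746 in DU145, and at 0.232, 0.341, 0.144 and 0.180 in PC3. For both genes all PC3 libraries were lowest and the other lines overlapped. MT1X was 2.93-fold and MT1F 5.38-fold lower in PC3 than in BPH-1 by the means.

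MT1G and MT1H, which lie side by side in the cluster, were at or near 0 throughout. MT1G (chr16:56666731-56668065, minus strand) had 3 reads in BPH-1 replicate 2 (0.140 FPKM) and 0 reads in the other 11 libraries. MT1H (chr16:56669814-56671129) was at 0 reads in 12 of 12 libraries, which allows up to 0.168 to 0.212 FPKM. MT1H was also the gene with the most motif matches of the promoters shown above.

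MTF1, the regulator, was highest in BPH-1. It was at 7.12, 7.69, 8.10 and 8.22 FPKM in BPH-1 and at 5.42, 4.97, 5.004 and 3.87 in PC3. In DU145 it was at 2.36, 5.51, 1.28 and 5.16 FPKM. Every BPH-1 library exceeded every other library, and the DU145 libraries fell into a low pair (replicates 1 and 3) and a pair near the PC3 values (replicates 2 and 4). The low pair is the pair with the steep GC slopes, and the part of GC in this split was not tested.

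**Figure D2:**
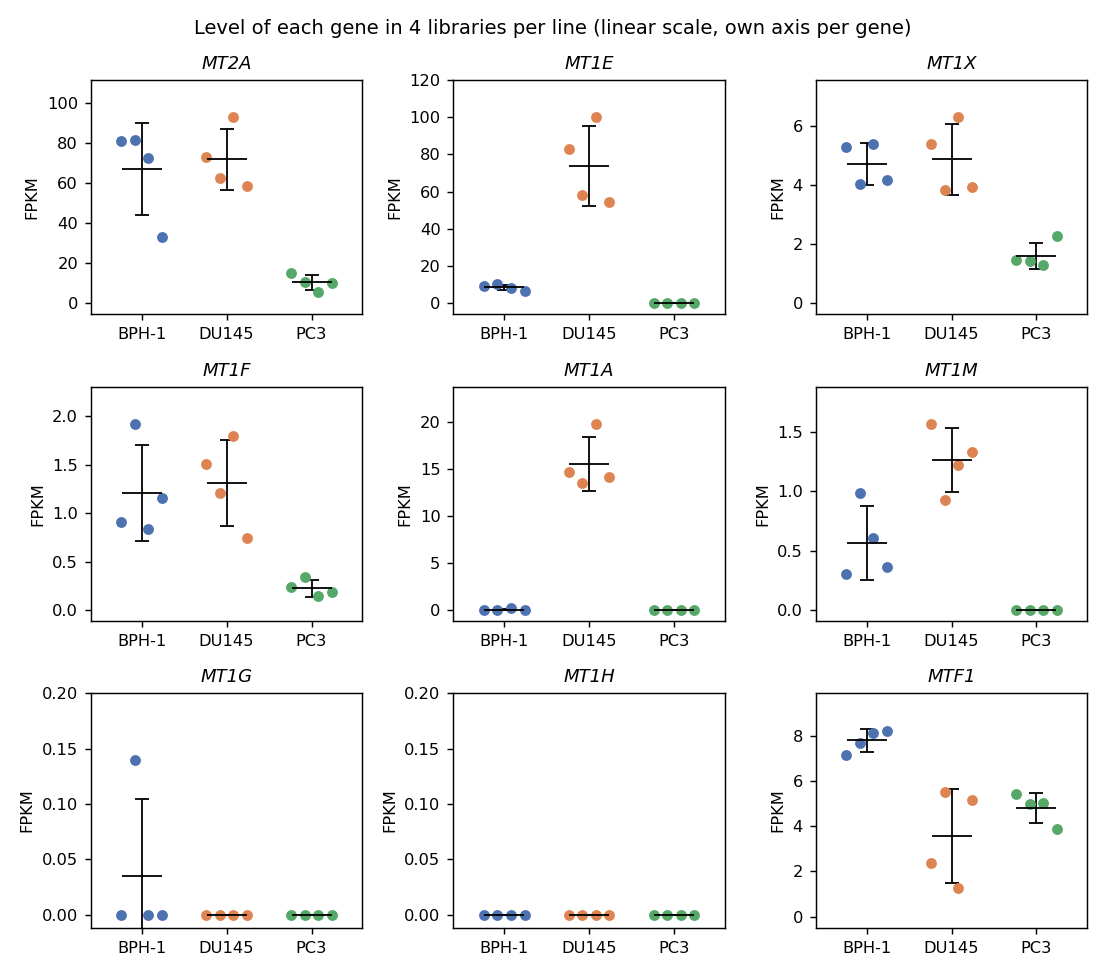
FPKM of the 9 genes in the 12 libraries, with a linear y axis of its own for each gene. Points are libraries in the order of their replicate numbers, the horizontal mark is the mean and the bars are 1 SD (n = 4), cut at the lower axis for MT1G; MT1A stands above 13 FPKM only in DU145, and MT1E in PC3 does not exceed 0.282 FPKM.

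Within a line the order of the genes differed. By mean FPKM, BPH-1 ran from MT2A (67.1) through MT1E (8.43), MT1X (4.73) and MT1F (1.21) to MT1M (0.566), and the ranges of the last neighbours, MT1F and MT1M, overlapped. DU145 ran from MT1E (73.9) and MT2A (71.8), which overlapped, through MT1A (15.5) and MT1X (4.88) to MT1F (1.31) and MT1M (1.26), which overlapped. PC3 ran from MT2A (10.3) through MT1X (1.62) to MT1F (0.224) and MT1E (0.108), which overlapped. These FPKM divide by the summed length of all distinct exons, which counts overlapping exons more than once. When merged exons were used instead, the level in DU145 was 170 ± 36.5 for MT2A and 107.7 ± 31.4 for MT1E, so which of the 2 stood first depended on the length used.

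Summed over the 8 metallothionein genes, the level was 45.2 to 98.9 FPKM in BPH-1, 133 to 222 in DU145 and 7.32 to 17.0 in PC3. The 3 lines did not overlap in this sum. MT2A made up 73.0% to 84.0% of the sum in BPH-1 and 76.3% to 89.2% in PC3, but 40.8% to 44.6% in DU145, where MT1E made up 41.0% to 46.2%. These shares use the summed length of all distinct exons. With merged exons the DU145 means were 170 for MT2A and 107.7 for MT1E, so their near equality in the sum depended on the length used. In bulk RNA, fewer expressing cells and less RNA per cell cannot be told apart.

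**Figure D3:**
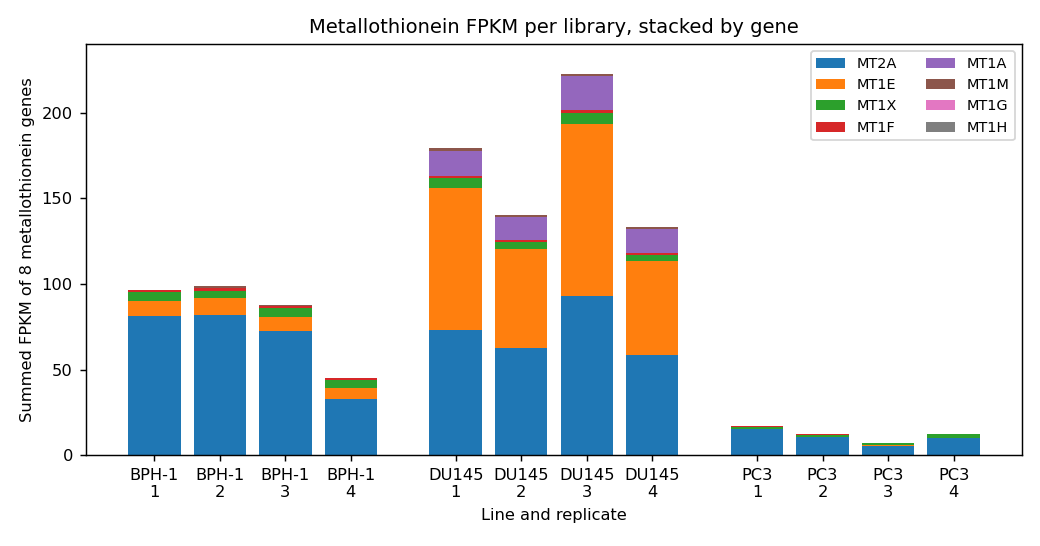
FPKM of 8 metallothionein genes stacked per library, on a linear y axis from 0. Each bar is 1 library of the named line and replicate; DU145 bars reach 133 to 222 FPKM with MT1E and MT1A added to MT2A, and PC3 bars reach 7.32 to 17.0.

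To compare the benign line with each PCa line, limma was fitted to log2(FPKM + 1) of the libraries of both lines, with Benjamini-Hochberg adjustment over all genes tested. A gene was tested when 4 or more of the 8 libraries had 10 reads or more after scaling to the median depth, with 15 reads in all. For PC3 against BPH-1, 67.6% of 16345 genes passed an adjusted p of 0.05, 27.2% higher and 40.5% lower in PC3, so a call by itself was common. Of the 9 genes, 5 were tested and 5 were called lower; MT1A, MT1G, MT1H and MT1M had too few reads to be tested. MT1E and MT1F passed the filter only through BPH-1, so that a lower value in PC3 had to follow for them. MT1E fell by 3.08 (SE 0.149, adjusted p = 2.24e-07) on this log2 scale, and MT2A by 2.57 (SE 0.337, adjusted p = 0.000114). MT1X fell by 1.14 (SE 0.150, adjusted p = 0.000119) and MT1F by 0.83 (SE 0.139, adjusted p = 0.000542). MTF1 fell by 0.60 (SE 0.118, adjusted p = 0.00144). The libraries of the lines did not overlap for any of these 5 genes, all lower in PC3, where 64.5% of all genes tested did not overlap (38.7% lower and 25.8% higher). The median of all genes tested was -0.13. MTF1 lost its call when all 3 lines shared 1 fit (adjusted p = 0.0828). For MT1M, which was not tested in limma, the exact two-sided permutation test gave p = 0.0286, the smallest that 4 against 4 libraries allow.

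For DU145 against BPH-1, 62.6% of 17070 genes were called, 30.3% higher and 32.3% lower in DU145. Of the 9 genes, 7 were tested, 3 were called higher, 1 lower and 3 were not called. MT1A and MT1M passed the filter only through DU145, so that a higher value there had to follow. The libraries did not overlap for MT1A and MT1E, both higher, and for MTF1, lower, and overlapped for the other 4 genes, where 59.4% of all genes tested did not overlap (28.8% higher and 30.6% lower). MT1A was higher by 3.98 (SE 0.166, adjusted p = 1.38e-07) and MT1E by 2.96 (SE 0.222, adjusted p = 3.64e-06). MTF1 was lower, at -1.07 (SE 0.315, adjusted p = 0.0136), and at -0.47 (adjusted p = 0.00698) without DU145 replicates 1 and 3. MT1M was higher by 0.54 (SE 0.150, adjusted p = 0.00993), but its libraries overlapped and the call was lost with the GC trend divided out (0.28, adjusted p = 0.129), without DU145 replicates 1 and 3 (0.46, adjusted p = 0.0699) and in the exact permutation test (p = 0.0571). MT2A (0.16, SE 0.292, adjusted p = 0.653), MT1X (0.02, SE 0.187, adjusted p = 0.917) and MT1F (0.07, SE 0.192, adjusted p = 0.760) did not pass. They turned negative with the GC trend divided out and with libraries rescaled to the same summed FPKM, which moved the median of all genes from -0.03 to -0.16, and stayed above 0 with median-of-ratios scaling (0.15, 0.014 and 0.070). MT1A, MT1E and MTF1 kept their calls without DU145 replicates 1 and 2, the libraries that carried leukocyte markers (4.09, 3.01 and -1.23).

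For PC3 against DU145, 48.2% of 16210 genes were called, and 28.3% were lower in PC3. Of the 9 genes, 7 were tested, of which 6 were lower in PC3, with no overlap, and 1 was not called and overlapped. Of all genes tested 46.5% did not overlap, 27.4% lower and 19.1% higher in PC3. The difference was -6.04 (SE 0.214, adjusted p = 1.32e-07) for MT1E and -2.73 (SE 0.269, adjusted p = 3.86e-05) for MT2A. It was -1.16 (SE 0.194, adjusted p = 0.000979) for MT1X and -0.90 (SE 0.143, adjusted p = 0.000717) for MT1F. MT1A (-4.03, SE 0.156) and MT1M (-1.17, SE 0.0909) passed the filter only through DU145, as did MT1E and MT1F, and PC3 had 0 reads of MT1A and MT1M, so the fitted differences of these 2 depend on the value of 1 added before the logarithm. MTF1 did not pass (0.47, SE 0.328, adjusted p = 0.274) and turned to -0.13 without DU145 replicates 1 and 3. This comparison shares libraries with the other 2, so the values of the 3 are not independent.

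**Figure D4:**
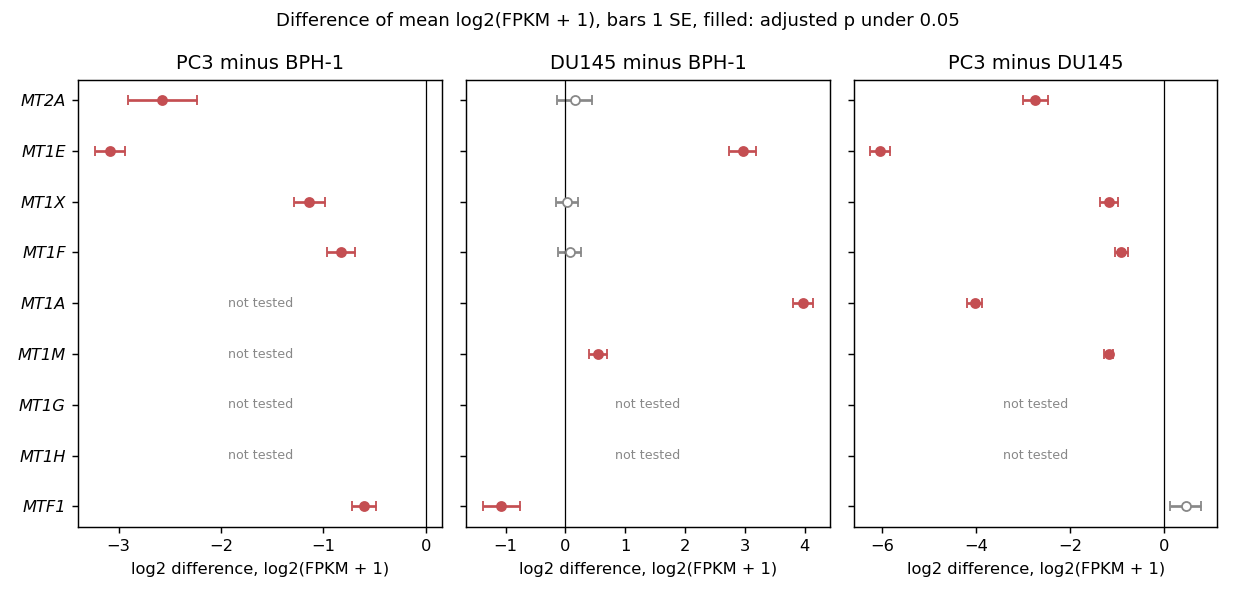
Differences of mean log2(FPKM + 1) for the 9 genes in 3 comparisons, first line minus second line, each panel with its own x axis. Points are limma estimates, bars are 1 SE, filled points have an adjusted p under 0.05, and genes with too few reads are marked as not tested; MT1E reaches -3.08, 2.96 and -6.04, while MT2A, MT1X and MT1F lie near 0 between DU145 and BPH-1.

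Of the 13 further family genes in the table, MT4, MT1B, MT1HL1, MT1CP and MT1IP were listed at 0 in every library. MT3, MT1JP, MT1DP, MT1P1 and MT1XP1 had at most 5 reads in any library, and MT1L, MT1P3 and MT2P1 had more. MT1L, a transcribed pseudogene next to MT1E (chr16:56617476-56618818), was at 25.6, 19.2, 30.6 and 15.2 FPKM in DU145. It had 3 reads in BPH-1, in replicate 2, and 0 in PC3. The ratio of DU145 to BPH-1 was 231, with a counting interval of 78.6 to 1120. MT1L shares 4.4% of its 50-base stretches with another gene, MT1P3, and none of its 100-base stretches. MT1P3, a processed pseudogene on chromosome 20, had 57 reads in DU145, 4 in BPH-1 and 0 in PC3, but 54.7% of its 50-base stretches occur in other family genes, and it lies within MMP24OS on the opposite strand. Its reads are therefore uncertain. Among the 8 neighbours of the cluster, 7 were tested. In PC3 against BPH-1, 0 were higher and 4 lower, with NUDT21 (-2.15), OGFOD1 (-1.08) and NUP93 (-0.39) leading. Over all genes tested 67.6% were called there, 40.5% lower in PC3. GNAO1, also lower (-0.38), had 0 to 1 reads per PC3 library and passed the filter only through BPH-1, so that a lower value had to follow. With the GC trend divided out 3 were lower, and OGFOD1 was no longer called (adjusted p = 0.0534). In DU145 against BPH-1, where 62.6% of all genes tested were called, 3 were higher and 1 lower, with HERPUD1 (1.58) the largest rise. NUDT21, the fall of 1.60 there, was no longer called with the GC trend divided out (0.34, adjusted p = 0.310), and the counts became 4 higher and 0 lower.

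Zinc exporters of the SLC30A family move zinc out of the cytosol. Of 10 listed, 7 were tested. Over all genes tested, 67.6% were called in PC3 against BPH-1 (40.5% lower) and 62.6% in DU145 against BPH-1 (32.3% lower). In PC3 against BPH-1, 0 of the SLC30A genes were higher and 7 lower (median -0.91, against -0.13 for all genes tested). SLC30A1 (-1.70), SLC30A9 (-1.38) and SLC30A6 (-0.92) led. In DU145 against BPH-1, 0 were higher and 5 lower (median -0.95, against -0.03), led by SLC30A7 (-1.46), SLC30A6 (-1.20) and SLC30A1 (-0.95). With the GC trend divided out these counts became 3 higher and 2 lower in PC3, and 3 higher and 0 lower in DU145, so the direction of this family depended on that choice. SLC30A1, the exporter regulated by MTF1, was at 7.11 to 8.60 FPKM in BPH-1, at 2.48, 6.60, 2.12 and 3.73 in DU145 and at 3.005, 1.92, 0.711 and 1.41 in PC3. Its difference with the GC trend divided out was -0.10 (adjusted p = 0.718) in PC3 and 0.93 (adjusted p = 0.00168) in DU145, each against BPH-1. Between PC3 and DU145, 1 of the 7 was called, SLC30A3 (-0.51), where 48.2% of all genes tested were called. With the GC trend divided out, 1 of the 7 was higher and 3 were lower in PC3 than in DU145. SLC30A3 had 0 to 4 reads per PC3 library. It passed the filter of both PC3 comparisons only through the other line, so that a lower value in PC3 had to follow.

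The SLC39A family imports zinc into the cytosol. Of 14 listed, 11 were tested, with 4 higher and 3 lower in PC3 against BPH-1 and 3 higher and 1 lower in DU145 against BPH-1. Over all genes tested 67.6% and 62.6% were called in these comparisons. With the GC trend divided out the counts were 4 higher and 2 lower in each. SLC39A4, the main zinc importer of the intestine, was higher in PC3 (3.06) and in DU145 (0.82), with a mean of 7.66 FPKM in PC3, 0.831 in DU145 and 0.0347 in BPH-1. It had 0 to 7 reads per BPH-1 library and passed the filter only through the PCa line, so that a higher value there had to follow. SLC39A14, an importer of zinc, iron and manganese, was higher in DU145 (1.84), at 41.2, 38.8, 31.0 and 43.3 FPKM in replicates 1 to 4, against 6.29 to 13.7 in BPH-1. SLC39A10 was lower in both PCa lines (-1.71 and -1.91).

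**Figure D5:**
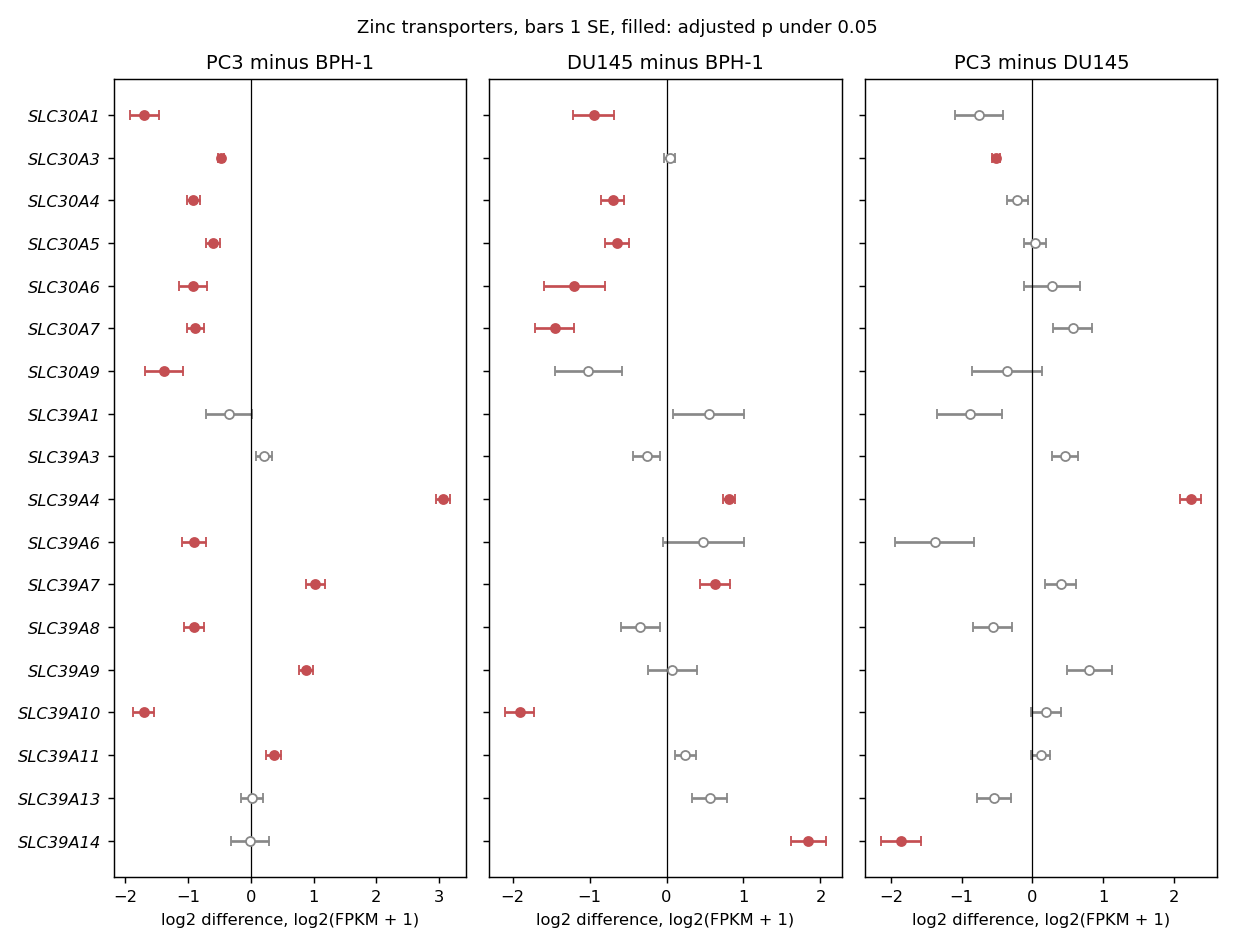
Differences of mean log2(FPKM + 1) of the tested SLC30A and SLC39A zinc transporters in 3 comparisons, first line minus second line, each panel with its own x axis. Points are limma estimates without GC adjustment, bars are 1 SE and filled points have an adjusted p under 0.05; the SLC30A points in PC3 minus BPH-1 all lie below 0, a pattern that did not hold with the GC trend divided out.

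Genes of copper handling, of the metal and oxidative stress response and of the glucocorticoid response were listed because these signals bear on metallothioneins, and their counts also moved with the GC trend divided out, a check added after seeing the data. Their counts are to be read against the 67.6% (PC3) and 62.6% (DU145) of all genes called against BPH-1. Of 12 copper genes, 5 were higher and 5 lower in PC3, and 5 higher and 2 lower in DU145, each against BPH-1. With the GC trend divided out these were 6 and 2 in PC3 and 5 and 2 in DU145. SLC31A1, the copper importer, was higher in DU145 (1.11). Of 12 stress genes, 2 were higher and 4 lower in PC3 and 5 higher and 3 lower in DU145, against 2 and 1 and 8 and 4 with the GC trend divided out. NQO1 (2.95), HMOX1 (2.78) and SRXN1 (2.70), targets of the oxidative stress factor NRF2, were higher in DU145. TXNRD1 (1.86) and GSR (1.78), further NRF2 targets of the list, were also higher there. The NRF2 targets SLC7A11 (-0.77, adjusted p = 0.162), GCLM (-0.43, adjusted p = 0.185) and GCLC (0.48, adjusted p = 0.0723) did not pass there. SLC7A11, GCLM and GCLC were all higher with the GC trend divided out (1.42, 1.13 and 1.25). The heat shock genes HSPA1A (-4.82), HSPH1 (-3.99) and HSPA1B (-3.65) were lower there. DNAJB1, a further heat shock gene of the list, did not pass there (-0.15, limma, adjusted p = 0.437). With the GC trend divided out, all 12 stress genes were called in DU145 against BPH-1, DNAJB1 included. HSPA1A and HSPA1B are near-identical copies, and their reads are uncertain. Of 9 glucocorticoid response genes tested, 4 were higher and 1 lower in DU145 (5 and 2 with the GC trend divided out), with DUSP1 (3.20), ERRFI1 (2.13) and TSC22D3 (1.86) the largest rises. In PC3, 3 were higher and 4 lower (2 and 4 with the GC trend divided out), with NR3C1, the glucocorticoid receptor, at -1.64.

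The genes whose pattern over the 12 libraries was most like that of MT2A were sought among 14866 genes tested in all 3 comparisons. The measure was the mean absolute difference of log2(FPKM + 1), each gene centred on its own mean. The closest were ARHGEF40 (0.298), CRB3 (0.316), GALNT14 (0.322), CAMK2N1 (0.334) and P3H2 (0.339). ARHGEF40 was at 5.27 ± 1.32 FPKM in BPH-1, 6.85 ± 1.32 in DU145 and 0.155 ± 0.0286 in PC3 (SD, n = 4). GALNT14 had means of 5.30 FPKM in BPH-1 and 0.0023 in PC3, against 67.1 and 10.3 for MT2A. The value of 1 added before the logarithm shrinks differences at low levels, so likeness on this scale is not likeness in fold. MT1F, 5.38-fold lower in PC3 than in BPH-1 against 6.5-fold for MT2A, was farther away. Of the genes described here, MT1X (0.726) and MT1F (0.855) came closer to MT2A than MTF1 (1.27) and MT1E (1.36).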

How the data were processed

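RNA-sequencing of 12 libraries was examined, 4 each of BPH-1, DU145 and PC3, grouped by the sample titles. The authors deposited 1 table of normalized values for 58302 genes. Its header names no unit, and the deposited values have the form of FPKM. Per the labels, total RNA was extracted with TRIzol and libraries were made with an NEB Ultra RNA kit. The submitters' processing notes name CASAVA 1.8, HISAT2 2.1.0 and edgeR, with GRCh38/hg38, without their roles. The counting program, the use of strand and any filter are not given in the sources used here. With length as the summed distinct exons of GENCODE 29, 95.0% to 95.9% of the low values of a library came out as whole reads within 0.02 reads. The reads recovered this way gave the depth, the filter and the floor of 3 reads. For 263 genes no length was found, and they were left out. Intervals and floors cover counting error only.

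Genes that reached 10 reads in 4 libraries, after scaling to the median depth, and 15 reads in all were tested in limma 3.58.1 (R 4.3.3, intensity trend) on log2(FPKM + 1), with only the libraries of the 2 lines compared. This understates the change of low genes. A count model had been considered for the case of counts and was not used. Adjusted p is Benjamini-Hochberg over all genes tested, with a threshold of 0.05. Exact two-sided permutation tests (smallest p 0.0286) were run for single genes. Scripts were tested on simulated data. The GC trend was fitted per library as a natural spline (5 degrees of freedom) to genes averaging 50 reads or more. Promoters are from RefSeq (GRCh38.p14), and other coordinates from GENCODE 29.

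The genes and the lists were chosen with earlier results of these data known. Named genes were all 9 members and up to 3 called genes in each direction of each list by size of difference. SLC30A1, other family genes and the 5 genes most like MT2A were also named. Further listed genes were named where a limit needed them, among them the other NRF2 targets of the stress list and GNAO1. Alternatives were no filter, 10 reads in every library, log2(FPKM + 0.1), 1 fit over all 3 lines, a replicate block, 2 scalings, voom on recovered reads and leaving out each library. The folds without each library, the GC alternative, the rescaling of the gene lists and the alternatives leaving out 2 DU145 libraries were added after seeing the data. Libraries summed to 246960 ± 2986 FPKM (SD, n = 4) in BPH-1, 293757 ± 5858 in DU145 and 298496 ± 5975 in PC3. Some items are not reported here.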

Additional observations from a re-analysis of the deposited data

Results flagged for a closer look

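Among the 20 combinations of gene and line whose 4 libraries were not all equal, 3 had 1 library far from the rest. The rule allows about 5% by chance, but it always flags a line with reads in 1 library alone. MT1A and MT1G were flagged for that reason, so the count cannot be set against 5%. MT1A in BPH-1 replicate 3 was at 0.163 FPKM (1 read) and at 0 in the other libraries of that line. MT1G in BPH-1 replicate 2 was at 0.140 FPKM (3 reads) and at 0 in the others. MT1X in PC3 replicate 4 was at 2.27 FPKM, against 1.31 to 1.45 in the others. MT1E moved in opposite directions in the PCa lines, higher in DU145 and lower in PC3 than in BPH-1, and the test of PC3 against DU145 itself gave a log2 difference of -6.04 (limma, adjusted p = 1.32e-07, lower in 4 of 4 PC3 libraries).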

How the results depend on the processing

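Of 282 alternative values of the 15 called differences of single genes, 278 kept their direction and their call. The exceptions were MTF1 in PC3 against BPH-1 with 1 fit over all 3 lines (adjusted p = 0.0828), and MT1M in DU145 against BPH-1 with the GC trend divided out (0.28), without DU145 replicates 1 and 3 (0.46), and in the exact permutation test (p = 0.0571). MT1E and MT1F in the PC3 comparisons, and MT1A and MT1M in the DU145 comparisons, passed the filter only through the line where they were high. Their direction was thus fixed beforehand, and the 278 say little about them. A filter of 10 reads in every library removed them, and such removals are not among the 282. A filter of at least 10 reads in every library removes genes that are near 0 in 1 line. Of the 9 genes, 3 of 3 tested were then called in PC3 against BPH-1 and 2 of 5 tested in DU145 against BPH-1. In PC3 against DU145, 2 were called. Over all genes tested, 8426 of 13039, 7770 of 13248 and 5210 of 12677 were called in these comparisons. In DU145 against BPH-1 the uncalled differences turned negative. With libraries rescaled to the same summed FPKM, MT2A was at -0.087, MT1X at -0.18 and MT1F at -0.063, and with the GC trend divided out at -0.35, -0.34 and -0.22. Without DU145 replicates 1 and 3 they were at -0.062, -0.22 and -0.14. Leaving out single libraries gave -0.15 to 0.28 for MT2A, -0.088 to 0.11 for MT1X and -0.027 to 0.22 for MT1F. MTF1 in PC3 against DU145 was at -0.13 without DU145 replicates 1 and 3. The cause of these turns was not tested. The same-sum scaling moved the share of called genes that were higher from 40.2% to 30.3% in PC3 and from 48.4% to 38.6% in DU145, against BPH-1, and the median of all genes from -0.13 to -0.28 and from -0.03 to -0.16.

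With a replicate block, the genes called were 10710 in PC3 against BPH-1, 10152 in DU145 against BPH-1 and 6654 in PC3 against DU145, against 11057, 10689 and 7821 without it, and the block changed no call among those of the 9 genes that were tested (5, 7 and 7). Of 12 pairs of libraries with the same number, 1 had a correlation of deviations over 0.1 (range -0.6 to 0.46), and not every library was most like its own number. The libraries of a line also differed in GC slope, so this check cannot settle whether libraries with the same number share more than the number. Depth limits MT1A, MT1G, MT1H and MT1M where they had 0 to 16 reads.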

Other observations

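MT2P1, a processed pseudogene on chromosome 4, was at 3.19 to 3.87 FPKM in BPH-1, 4.07 to 6.37 in DU145 and 0.844 to 1.99 in PC3, from 2 to 19 reads per library. It was higher in DU145 than in BPH-1 by 0.45 (limma, adjusted p = 0.0338) and lower in PC3 than in DU145, at -1.34 (limma, adjusted p = 0.000461). It passed the read filter of the latter comparison only through DU145, so that a lower value in PC3 had to follow. With 9 to 11 reads per BPH-1 library, it also needed the DU145 libraries to pass against BPH-1, which favoured a higher value in DU145. Of its 50-base stretches, 15.7% occur in other family genes. MT3, the brain-enriched family member, had 5 reads in DU145, all in 1 library, 1 read in PC3 and 0 in BPH-1.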
